A study of Mus musculus with 12 samples.

Results

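Expression of 9 genes of meiosis and the germline was examined in cultured mouse embryonic stem cells: Smc1b, Hormad1, Sycp1, Sycp3, Dazl, Mael, Asz1, Stk31 and Slc25a31. They are 9 of the 23336 genes in the count table, found by symbol. All 9 were present in the table, and 7 passed the filter on low counts. Asz1, with 15 counts in all 12 libraries together, and Slc25a31, with 23, did not pass it. The set was picked from measured values of these same libraries, with Smc1b in the undifferentiated female lines among the results already in view. The contrast used for the other genes was not recorded. For that reason the values of these 9 genes are descriptions. Where the number that edgeR called is given, it stands beside the share called over all genes, and it is no evidence for the set or for any of its members.

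The 12 libraries fall into 6 groups of 2, all labelled C57BL/6. Pgk12.1 is the WT female line and E14 the male WT line, and a second female line carries the label RlimKO. Each was sequenced undifferentiated, in medium with LIF, and differentiated. For differentiation, embryoid bodies were formed without LIF over 3 days and then cultured for 6 days at 7.5% oxygen. Each sex and genotype is represented by 1 line, so line, sex and genotype cannot be told apart. RNA of Rlim, the targeted gene, was still counted in the RlimKO libraries: 160 and 150 CPM undifferentiated, against 267 and 282 in WT females, and 290 and 299 against 258 and 266 after differentiation. A count over the whole gene does not show which part was deleted, and these libraries are called RlimKO-labelled throughout. CPM are counts scaled to a common library size, as edgeR's TMM method gives them. Libraries held 2011919 to 5401940 counts in genes, of which Rn45s, a ribosomal RNA precursor, took 6.36% to 67.7%. The lowest share was in differentiated male replicate 2 and the highest in differentiated RlimKO-labelled replicate 1, and both stood apart from their partner libraries. In 1 library, 3 counts are worth 0.322 to 1.75 CPM. The labels do not say whether the 2 libraries of a group came from separate cultures, so the spread between them may be technical.

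Germline genes are transcribed in oocytes and spermatogenic cells and are kept silent in most somatic tissues. A subset of them is silenced around implantation by methylation of CpG-rich promoters, and in pluripotent cells also by PRC1.6, a Polycomb complex. Its subunit MGA, paired with MAX, recognises the E-box CACGTG, and its subunit E2F6 binds E2F sites. Embryonic stem cells cultured with serum and LIF are known to transcribe several of these genes at low level.

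The promoters of these genes are shown because such silencing, where it is known, acts through promoter sequences. Methylation and binding were not measured here. RefSeq promoters (GRCm38.p6) of 300 bases, from 250 before to 50 after a start site, were found for all 9 genes, 11 promoters in all, since Hormad1 and Stk31 have a pair each. They held 15 to 29 CpG dinucleotides, against a median of 7 over all 32851 promoters of that length. The 250 bases before the start site, 5′ to 3′ on the gene's own strand, are printed for 5 genes. Capitals mark CACGTG (a palindrome) and the E2F core GGCGGGA on either strand, read as TCCCGCC on the opposite one. Hormad1, Mael and Slc25a31 hold both motifs, Sycp1 holds the E-box alone, and Smc1b holds neither.
Hormad1: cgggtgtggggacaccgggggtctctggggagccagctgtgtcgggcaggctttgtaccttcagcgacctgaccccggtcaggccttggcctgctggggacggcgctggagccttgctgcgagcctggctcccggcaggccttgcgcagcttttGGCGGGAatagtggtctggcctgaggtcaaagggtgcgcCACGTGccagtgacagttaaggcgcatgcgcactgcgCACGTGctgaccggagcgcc
Mael: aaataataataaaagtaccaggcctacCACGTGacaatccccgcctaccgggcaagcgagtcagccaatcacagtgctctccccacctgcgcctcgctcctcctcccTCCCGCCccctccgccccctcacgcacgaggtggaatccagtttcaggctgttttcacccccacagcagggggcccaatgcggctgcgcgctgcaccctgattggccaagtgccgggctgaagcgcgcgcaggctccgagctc
Slc25a31: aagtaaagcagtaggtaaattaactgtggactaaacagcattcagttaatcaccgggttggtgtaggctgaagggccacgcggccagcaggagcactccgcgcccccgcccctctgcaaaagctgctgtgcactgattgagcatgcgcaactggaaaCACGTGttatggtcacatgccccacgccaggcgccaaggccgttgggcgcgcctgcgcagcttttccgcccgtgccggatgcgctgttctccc
Sycp1: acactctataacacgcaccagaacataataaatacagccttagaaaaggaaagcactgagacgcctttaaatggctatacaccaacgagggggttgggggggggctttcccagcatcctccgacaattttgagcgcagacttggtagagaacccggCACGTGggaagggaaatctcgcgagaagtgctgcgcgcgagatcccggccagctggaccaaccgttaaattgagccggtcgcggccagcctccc
Smc1b: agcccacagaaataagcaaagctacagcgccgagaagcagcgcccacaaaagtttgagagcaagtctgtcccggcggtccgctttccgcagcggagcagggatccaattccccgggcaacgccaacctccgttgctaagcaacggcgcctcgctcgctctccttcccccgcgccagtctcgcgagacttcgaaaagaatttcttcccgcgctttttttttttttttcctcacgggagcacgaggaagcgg

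These stretches lie at chr3:95559427-95559676 (plus strand) for Hormad1, chr1:166238745-166238994 (minus strand) for Mael, chr3:40708621-40708870 (plus strand) for Slc25a31, chr3:102936101-102936350 (minus strand) for Sycp1 and chr15:85131958-85132207 (minus strand) for Smc1b. The E-box begins 57 and 20 bases before the start site in Hormad1, 223 in Mael, 93 in Slc25a31 and 94 in Sycp1. The E2F core begins 96 bases before the start site in Hormad1 and 143 in Mael. A core in Slc25a31 and another in Mael lie in the 50 bases after the start, which are not printed. The E-box occurred in 8 of the 11 promoters (72.7%), those of Mael, Slc25a31, Hormad1, Sycp1, Stk31 and Sycp3. It occurred in 28.8% of 66 promoters of other germline genes, in 7.15% of all promoters, and in 11.3% of the promoters with at least 15 CpG. Those 66 promoters belong to 53 genes, and the other listed germline genes had no promoter matched. The E2F core occurred in 4 of the 11 (36.4%), against 16.7%, 11.3% and 26.5% in the same sets. The paired promoters of Hormad1 and of Stk31 overlap, so their motifs are counted more than once. By gene, the E-box was in 6 of 9 (66.7%), against 32.1%, 8.09% and 12%. The E2F core was in 3 of 9 genes (33.3%), against 18.9%, 12.7% and 28%. A match to these letters is a description and does not show binding.

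Before differentiation, Hormad1, Smc1b and Sycp3 had the highest levels of the 9 genes in WT females and in males. Per kilobase of annotated exon, Hormad1 was at 32.2 ± 4.25 CPM (mean ± SD, n = 2) in undifferentiated WT females, Smc1b at 19.2 ± 4.28 and Sycp3 at 13.9 ± 2.63. The libraries of these 3 genes did not overlap in that order. For Sycp3, however, 660 of the 1264 exon bases are shared with Chpt1 on the opposite strand. How reads there were counted is not given, so its level per kilobase and its place in the order are uncertain in each line. Mael at 3.91 ± 0.471, Sycp1 at 3.64 ± 1.54 and Stk31 at 3.17 ± 0.107 CPM per kilobase followed, and the libraries of Sycp1 overlapped those of both its neighbours. Dazl was at 1.89 ± 0.148, Slc25a31 at 0.706 ± 0.0482 and Asz1 at 0.168 ± 0.238. The order differed between lines. In RlimKO-labelled cells Hormad1, at 14.4 ± 0.844, and Sycp3, at 14.3 ± 3.19, overlapped, and Sycp1 at 4.41 ± 0.202 and Smc1b at 4.13 ± 1.15 followed and overlapped too. In male cells Sycp3 was first with 22.7 ± 8.84, overlapping Smc1b with 16.0 ± 3.45, and Hormad1 was at 9.02 ± 0.311 CPM per kilobase.

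**Figure D1:**
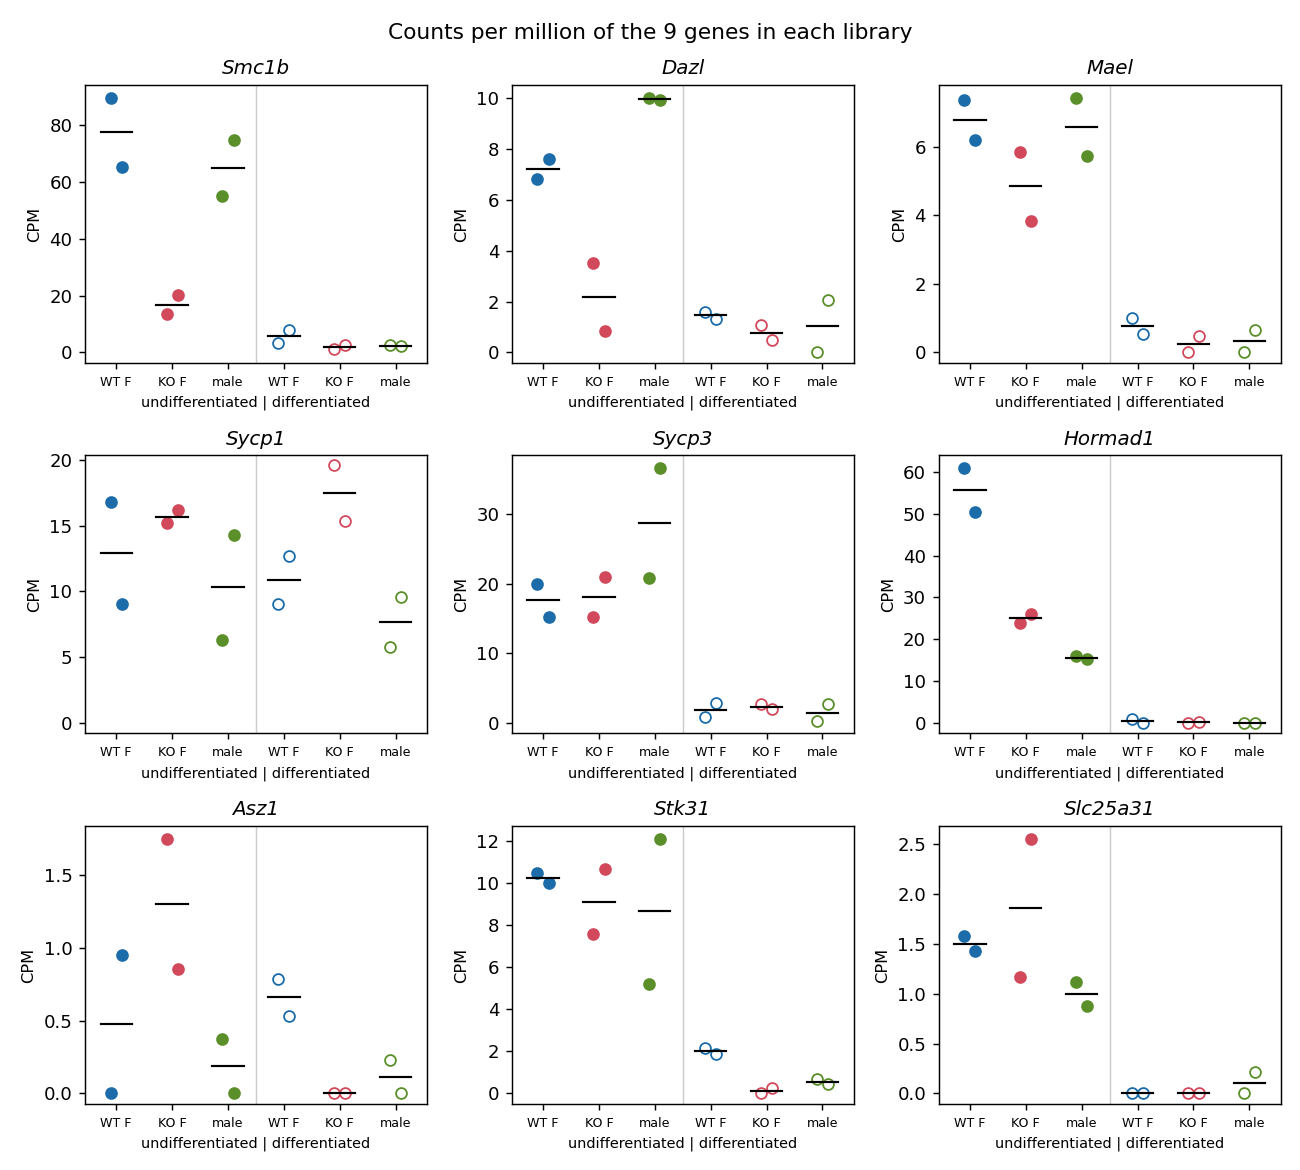
CPM of each of the 9 genes (vertical axes, linear, each with its own scale) in the 12 libraries, by line (horizontal axes; WT F, female WT; KO F, RlimKO-labelled female; male), with filled points for undifferentiated and open points for differentiated cells and a bar at the mean of 2 libraries. Hormad1 falls from between 15.2 and 60.9 CPM to below 1 CPM in each line, while the Sycp1 points of the 2 states overlap.

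Smc1b encodes a cohesin subunit used in meiosis, the counterpart of SMC1A, and lies on chr15:85064689-85131964 (minus strand). Undifferentiated WT female libraries had 89.8 and 65.3 CPM, male libraries 55.0 and 74.7, and RlimKO-labelled libraries 13.4 and 20.0. Both RlimKO-labelled libraries were below every library of the other lines, which overlapped each other. The log2 difference was -2.19 ± 0.34 (SE) from WT females and -1.94 ± 0.33 from males. After differentiation the libraries held 3.35 and 7.95 CPM in WT females, 1.06 and 2.44 in RlimKO-labelled females and 2.53 and 2.15 in males. All 6 were below every undifferentiated library, with log2 changes of -3.82 ± 0.36, -3.09 ± 0.49 and -4.81 ± 0.38 in that order. Leaving out the differentiated replicate 2 moved the first to -4.57 and the second to -3.95.

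Hormad1 encodes a protein of the unsynapsed chromosome axis that takes part in the checkpoint of meiotic prophase (chr3:95559677-95587671, plus strand). It had 60.9 and 50.5 CPM in undifferentiated WT females, 23.9 and 26.0 in RlimKO-labelled females and 16.0 and 15.2 in males. The 3 lines did not overlap, and the order was WT female, RlimKO-labelled female, male. The log2 difference was 1.84 ± 0.34 between WT females and males and -1.15 ± 0.34 between RlimKO-labelled and WT females. After differentiation 6 counts remained in the 6 libraries together: 5 in WT female replicate 1 (0.986 CPM), 1 in RlimKO-labelled replicate 2 (0.244 CPM) and 0 in the others. The log2 change in WT females was -6.56 ± 0.51; it was -5.83 without differentiated replicate 2, and without replicate 1 no count remained on that side. For RlimKO-labelled cells, 102 counts before and 1 after give a ratio of 150.4 with a 95% interval of 26.4 to 5996. In males there were 112 counts before and 0 after, a level 70.6-fold lower when 3 counts over the group are taken as the floor. Intervals and floors pool the counts of the 2 libraries of a group and cover counting error only. They leave out variation between libraries, and amplified copies of a molecule were not separated. Within groups, chi-square per degree of freedom over genes other than Rn45s ran from 2.03 to 28.5 (differentiated males), beyond counting error, so the intervals are too narrow. A floor takes the counts of the other group as exact, so with few counts there it is no lower bound.

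Sycp3 and Sycp1 encode the lateral and the transverse elements of the synaptonemal complex, which joins homologous chromosomes, and they differed in their behaviour. Sycp3 (chr10:88459569-88473236, plus strand) had 20.0 and 15.3 CPM in undifferentiated WT females, 15.2 and 20.9 in RlimKO-labelled females, and 20.8 and 36.6 in males. After differentiation it had 0.789 and 2.91, 2.66 and 1.95, and 0.230 and 2.69 CPM. Undifferentiated males were above WT females and overlapped RlimKO-labelled cells, the differentiated lines overlapped, and no differentiated library reached an undifferentiated one. The log2 changes were -3.31 ± 0.63, -3.03 ± 0.66 and -4.03 ± 0.56. The first was -2.58 without differentiated WT female replicate 1 and -4.48 without replicate 2, and the last was -3.39 without differentiated male replicate 1 and -6.72 without replicate 2. Sycp3 shares 660 of its 1264 annotated exon bases with Chpt1 on the opposite strand. The library type as described does not mark strand, so reads of these genes cannot be told apart there. Chpt1 was at 2.58 to 15.3 CPM over the 12 libraries, and its level in males was 5.94 and 5.51 CPM before against 3.67 and 2.58 after.

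Sycp1 (chr3:102818499-102936100, minus strand) had 16.8 and 9.06 CPM in undifferentiated WT females, 15.2 and 16.2 in RlimKO-labelled females and 6.31 and 14.3 in males, and 9.08 and 12.7, 19.7 and 15.4, and 5.74 and 9.56 CPM after differentiation. It was the only one of the 7 tested genes whose states overlapped in each line. The log2 changes were -0.25 ± 0.42, 0.13 ± 0.41 and -0.44 ± 0.40. Reads of its annotated pseudogene Sycp1-ps1 numbered 2 in the 12 libraries together. Which part of Sycp1 the reads cover cannot be read from gene counts.

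Dazl encodes an RNA-binding protein of germ cells that promotes translation (chr17:50279395-50293636, minus strand). In undifferentiated cells it had 6.83 and 7.63 CPM in WT females, 10.03 and 9.92 in males, and 3.50 and 0.852 in RlimKO-labelled females. Both RlimKO-labelled libraries, with 8 counts between them, were below the other lines. The log2 difference was -1.81 ± 0.87 from WT females and -2.27 ± 0.83 from males. After differentiation Dazl had 1.58 and 1.32 CPM in WT females, 1.06 and 0.488 in RlimKO-labelled females and 0 and 2.04 in males. The states did not overlap in WT female and male lines and did overlap in RlimKO-labelled cells. The log2 changes were -2.28 ± 0.80, -1.52 ± 1.16 and -2.99 ± 0.74 in WT, RlimKO-labelled and male lines. All 19 differentiated male counts came from replicate 2, and without replicate 1 the male change was -2.21.

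Mael encodes a protein of the germ granule that acts in transposon silencing through piRNAs (chr1:166201201-166238747, minus strand). It had 7.35 and 6.20 CPM in undifferentiated WT females, 5.84 and 3.84 in RlimKO-labelled females and 7.43 and 5.73 in males, and 0.986 and 0.530, 0 and 0.488, and 0 and 0.645 CPM after differentiation. Each differentiated library was below every undifferentiated one, with log2 changes of -3.06 ± 0.76, -3.74 ± 0.98 and -3.88 ± 0.76. The change in RlimKO-labelled cells rests on 19 counts against 2, a ratio of 14.0 with a 95% interval of 3.38 to 124. Without differentiated male replicate 1 the male change was -3.20, and without differentiated replicate 2 no Mael count remained in males or RlimKO-labelled cells.

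Stk31 encodes a protein with tudor and kinase-like domains found in spermatogenic cells (chr6:49395604-49469501, plus strand). Its 10.5 and 10.0 CPM in undifferentiated WT females, 7.59 and 10.7 in RlimKO-labelled females and 5.20 and 12.1 in males overlapped across lines. After differentiation the libraries of the lines did not overlap, at 2.17 and 1.85 CPM in WT females, 0 and 0.244 in RlimKO-labelled females and 0.689 and 0.430 in males. The log2 changes on differentiation were -2.32 ± 0.54 in WT females and -4.00 ± 0.60 in males, the latter -3.22 without undifferentiated male replicate 2. RlimKO-labelled cells held 38 counts before and 1 after, a ratio of 56.0 with a 95% interval of 9.46 to 2270. The 1 count against 18 in differentiated WT females gives a ratio of 12.2, with an interval of 1.92 to 507. Against the 7 counts in differentiated males the ratio is 3.07 with an interval of 0.394 to 138, which includes 1.

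Asz1, a germ granule protein of the piRNA pathway (chr6:18050964-18109061, minus strand), was near the limit of detection. It had 0 to 4 counts in each library, and its levels in undifferentiated cells were 0 and 0.953 CPM in WT females, 1.75 and 0.852 in RlimKO-labelled females and 0.371 and 0 in males. Its 5 counts in undifferentiated RlimKO-labelled cells against 0 after differentiation give a ratio of 2.46 at the floor of 3 counts. With the 5 counts taken as exact this is no lower bound, and no difference of Asz1 on differentiation was established at this depth. Slc25a31 encodes the ADP/ATP carrier of germ cell mitochondria (chr3:40708855-40726096, plus strand). It had 1.58 and 1.43 CPM in undifferentiated WT females, 1.17 and 2.56 in RlimKO-labelled females, and 1.11 and 0.882 in males. After differentiation 2 counts remained, both in male replicate 2. At the floor of 3 counts the differentiated level was 4.42-fold lower in WT females and 3.93-fold lower in RlimKO-labelled cells. These ratios take the 6 and 8 undifferentiated counts as exact and are no lower bounds. In males 7 counts against 2 gave a ratio of 6.62 with a 95% interval of 1.26 to 65.3.

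On differentiation, edgeR's quasi-likelihood test with Benjamini-Hochberg adjustment over all 12814 tested genes called 6 of the 7 tested genes lower in WT females, 5 in RlimKO-labelled females and 6 in males. Over all tested genes the same test called 48.7%, 48.0% and 54.0% in either direction, and 2845, 2771 and 3250 of the 12814 lower. Sycp1 was not called in any line, and Dazl was not called in RlimKO-labelled cells. Without the libraries of lowest and highest Rn45s share, 6, 5 and 7 were called, and Sycp1 was called lower in males, with a log2 change of -0.93. The median log2 change of the 7 genes was -3.06, -3.09 and -4.00, beside medians of 0.09, 0.10 and 0.05 over all tested genes. These counts and medians come from the values of a set chosen on such values, and nothing is read from them. The Dazl call in WT females was lost in 5 of the 12 fits that left out 1 library: without undifferentiated or differentiated WT female replicate 1 or 2, or undifferentiated male replicate 2. The Dazl change stayed between -2.42 and -2.23 there. In bulk RNA, fewer cells that transcribe a gene and less RNA per cell cannot be told apart.

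**Figure D2:**
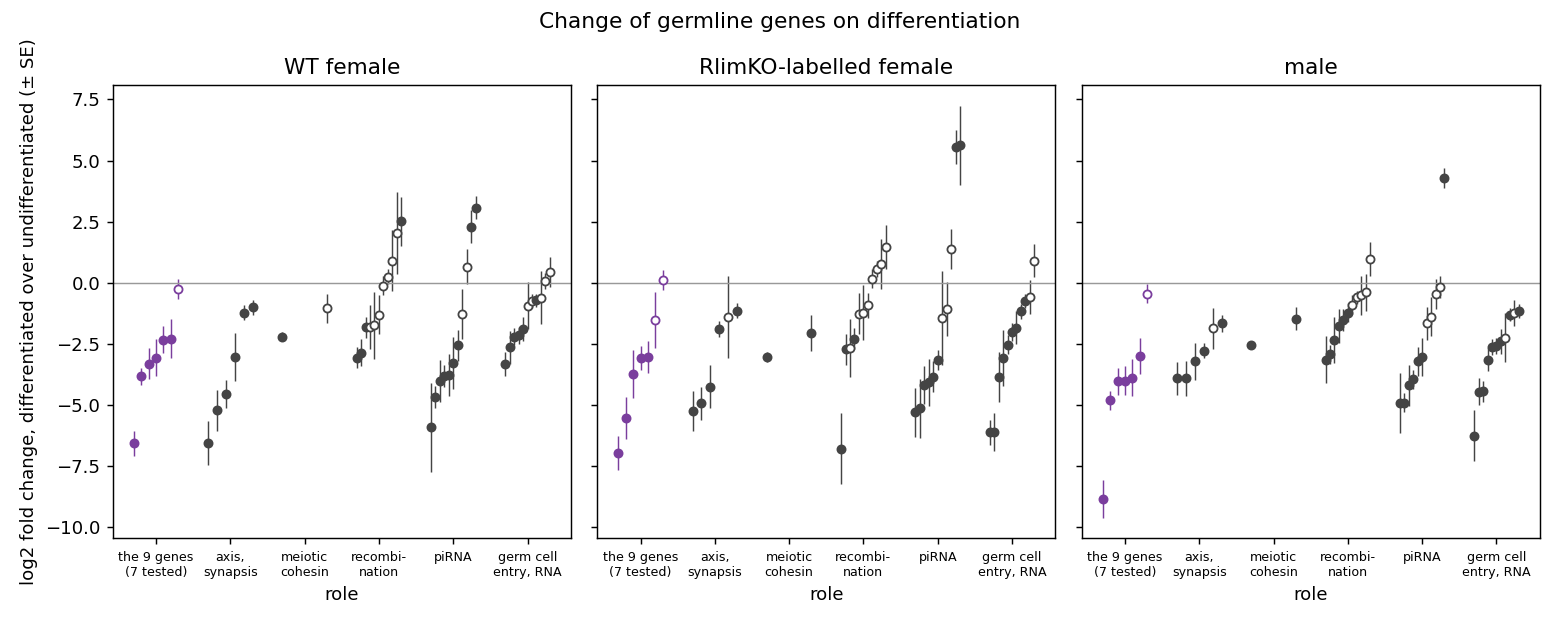
Log2 fold change of differentiated over undifferentiated cells (vertical axis; bars, SE) for the 7 tested genes (left in each panel) and the 41 other tested germline genes by role, in WT female, RlimKO-labelled female and male lines; filled points were called by edgeR. Of the 7 genes, Sycp1 lies near 0 in the 3 lines; points of genes with 0 counts in a group, such as Hormad1 in males, depend on the prior count and are no bound.

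The level left after differentiation was set beside that of pluripotency genes. Summed over the 9 genes, it was 10.4% and 14.6% of the undifferentiated mean in the 2 WT female libraries, 25.8% and 22.4% in RlimKO-labelled females, and 6.45% and 12.2% in males. Sycp1 makes up much of these sums, and leaving it out is a choice made after its values were seen. Without it the share left was 6.02% and 8.53% in WT females, 6.05% and 7.40% in RlimKO-labelled females, and 2.71% and 6.02% in males. Summed over 8 pluripotent cell markers (Pou5f1, Nanog, Sox2, Zfp42, Klf4, Esrrb, Tfcp2l1 and Utf1), the share left was 9.93% and 9.59%, 5.74% and 5.36%, and 3.47% and 10.4%. In both sets male replicate 2 kept more than male replicate 1. Without Sycp1 the shares of the set lay below those of the markers in WT females and above them in RlimKO-labelled females. Over the 66 other germline genes, with falling and rising members alike, the share left was 36.6% in WT females, 28.7% in RlimKO-labelled females and 28.3% in males, as means of 2 libraries. Since the 9 genes were chosen on measured values and the 66 were not chosen in the same way, no order is read from these shares. Each of the 8 pluripotent cell markers was detected in every group, and all 8 were called lower in each line. Of 8 fibroblast markers 7 were called higher in each line, and their summed level reached 3082 to 11721 CPM. The part that changed cell composition plays in the lower levels was not tested.

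**Figure D3:**
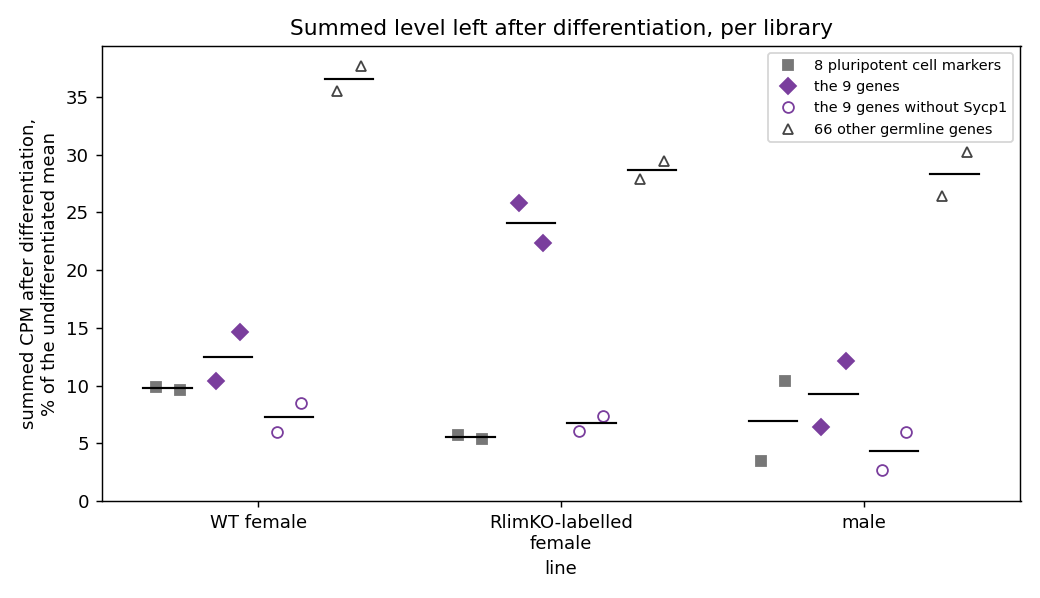
Summed CPM of each differentiated library as a percentage of its line's undifferentiated mean (vertical axis, from 0) for 8 pluripotent cell markers (squares), the 9 genes (diamonds), the same without Sycp1 (open circles) and 66 other germline genes (open triangles), by line, with bars at the means of 2 libraries. The 9 genes stand at 6.45% to 25.8%, and at 2.71% to 8.53% without Sycp1, the pluripotent cell markers at 3.47% to 10.4% and the other germline genes at 26.4% to 37.7%.

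Between the undifferentiated lines the 9 genes differed gene by gene. RlimKO-labelled against WT females, edgeR called Smc1b alone of the 7, lower, with 0.242% of all tested genes called. WT females against males, it called Hormad1 alone, higher, with 6.63% of all genes called. RlimKO-labelled females against males, it called Smc1b alone, lower, with 10.0% called. The median log2 difference of the 7 genes was -0.50, 0.21 and -0.45, beside -0.01, -0.08 and -0.11 over all tested genes. Nothing is read from these calls, since Smc1b in the female lines was in view when the set was made. Against WT females the Smc1b call was lost in 7 of the 12 fits that left out 1 library, those without any library of the 2 lines compared, undifferentiated male replicate 2 or either differentiated RlimKO-labelled library, with a log2 difference between -2.49 and -1.92. The Hormad1 call was lost when the undifferentiated replicate 1 of WT females or any undifferentiated male library was dropped, with a difference between 1.76 and 2.03. Without the libraries of lowest and highest Rn45s share, Hormad1 was also called between the female lines and Dazl between RlimKO-labelled females and males, with log2 differences of -1.15 and -2.30.

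**Figure D4:**
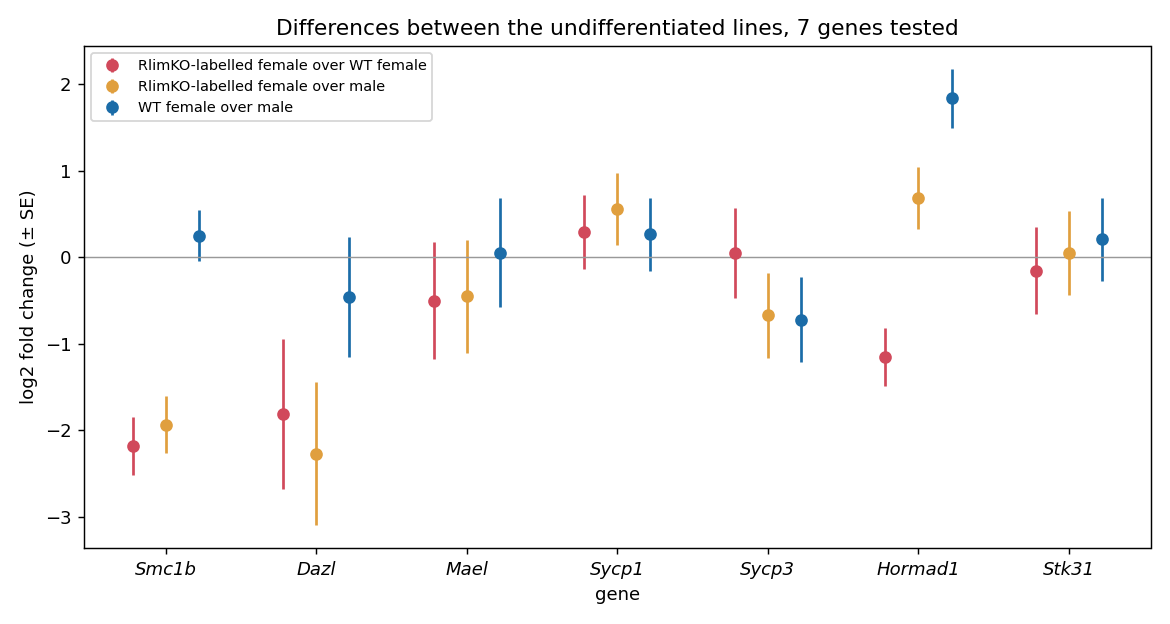
Log2 fold change between the 3 undifferentiated lines (vertical axis; bars, SE) for the 7 tested genes (horizontal axis), coloured by comparison. Smc1b lies at -2.19 and -1.94 and Dazl at -1.81 and -2.27 where RlimKO-labelled cells are compared with WT females and males, and Hormad1 is higher in WT females than in either other line.

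Summed marker levels also differed between the undifferentiated libraries. The summed fibroblast markers were at 6.83 to 11.9 CPM in undifferentiated WT females, 1.75 to 60.1 in RlimKO-labelled females and 44.5 to 63.5 in males, with Lum at 0 in WT females and Dcn at 0 in RlimKO-labelled cells. Smc1b was at 13.4 and 20.0 CPM in the RlimKO-labelled libraries with 1.75 and 60.1 CPM of these markers. The 6 markers of the 2-cell-like state, a rare state of these cultures, summed to 14.9 and 15.8 CPM in RlimKO-labelled cells, 1.58 to 4.77 in WT females and 1.11 to 2.42 in males. Tcstv1 and Tcstv3 were at 0 in the latter 2 groups. Of the 2 that were tested, edgeR called 0 between the female lines and 0 between WT females and males. Zscan4c was called higher in RlimKO-labelled females than in males. The 8 pluripotent cell markers summed to 1761 to 1836 CPM in WT females, 1574 to 1629 in RlimKO-labelled females and 1612 to 1615 in males. The part of these markers in the line differences of the germline genes was not tested.

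After differentiation edgeR called 0 of the 7 genes between any pair of lines. Of all tested genes, 2.59% were called between RlimKO-labelled and WT females, 8.97% between WT females and males, and 11.6% between RlimKO-labelled females and males. At an unadjusted p below 0.05 there were 2, 3 and 1 of the 7, and DESeq2 also called 0. In WT females Smc1b and Stk31 were above both other lines without overlap, at the values given above. So was Asz1, which was not tested, with 6 counts against 0 in RlimKO-labelled females and 1 in males. The share of all genes without such overlap was not computed, and nothing is read from it. The change on differentiation did not yield a call between lines for any of the 7 genes. Over all genes 0.203% were called for RlimKO-labelled against WT females and 1.39% for males against WT females, with 1 and 0 of the 7 genes at an unadjusted p below 0.05 and 0 called by DESeq2. These contrasts share libraries with those above. Without the libraries of lowest and highest Rn45s share, which leaves 1 differentiated male library with 0 Dazl counts, Dazl was called higher in WT females than in males, Sycp1 higher in RlimKO-labelled females than in males (log2 difference 1.41), and the changes of Dazl and Sycp3 were called larger in males than in WT females.

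The other germline genes were taken from a list of 66 chosen by role, of which 41 were tested. They allow tests, with the reservations that earlier results of these libraries were known and that the filter acted on the same counts. A gene could pass that filter through a single group where it is high. The split into lower and higher calls and the medians hold for the 41 that passed, not for the 66. On differentiation edgeR called 26 of the 41 in WT females (23 lower, 3 higher), 27 in RlimKO-labelled females (25 lower, 2 higher) and 29 in males (28 lower, 1 higher). Their median log2 change was -1.80, -2.01 and -2.34, also with genes at 0 counts set to their value at the floor of 3 counts. Of these genes 18 were lower in all 3 lines. Genes of axis and synapsis were lower in 6 of 6, 5 of 6 and 5 of 6 tested, among them Syce1, a central element of the synaptonemal complex, and Hormad2, a relative of Hormad1. Syce1 had 26.3 and 17.6 CPM in undifferentiated WT females and 0.986 and 0.795 after differentiation (log2 change -4.55 ± 0.56, edgeR adjusted p = 1.26e-05). Hormad2 fell from 12.6 and 14.8 CPM to 0.197 and 0 in that line (55 counts against 1, adjusted p = 3.35e-05 by edgeR).

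Stag3, the meiosis-specific cohesin subunit that works with SMC1B, fell in all 3 lines. It went from 148 and 140.1 CPM to 31.4 and 31.5 in WT females (log2 change -2.19 ± 0.17, edgeR adjusted p = 1.77e-07), from 98.7 and 117 to 14.9 and 12.2 in RlimKO-labelled females, and from 104 and 98.8 to 15.4 and 19.12 in males. Among piRNA genes 7, 6 and 6 of 11 tested fell. Ddx4, the germ cell RNA helicase, went from 8.93 and 7.15 CPM to 1.58 and 1.06 in WT females (edgeR adjusted p = 0.00393). Tdrd12, a tudor protein of the same pathway, fell in all 3 lines, with log2 changes of -4.67 ± 0.46 in WT females, -3.83 ± 0.63 in RlimKO-labelled cells and -4.90 ± 0.39 in males, with edgeR adjusted p of 1.58e-06, 0.000172 and 1.31e-07. Tdrd7 alone rose in all 3 lines, from 1.58 and 2.38 CPM to 19.3 and 14.6 in WT females (edgeR adjusted p = 7.54e-05) and from 1.86 and 1.32 to 37.2 and 24.6 in males. TDRD7 is also known from the lens of the eye, a somatic tissue. Of 11 recombination genes tested, 3 fell and 1 rose in WT females, 3 fell in RlimKO-labelled females and 6 fell in males. These counts stand beside the 48.7%, 48.0% and 54.0% called over all genes in either direction, with 2845, 2771 and 3250 of 12814 genes lower. Differences between roles were not tested.

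Of these 41 genes edgeR called 0, 3 and 7 between undifferentiated lines. In the same order, which is that of the comparisons below, 0.242%, 6.63% and 10.0% of all tested genes were called. RlimKO-labelled against WT females the count was 0 by edgeR and 0 by DESeq2, with 10 at an unadjusted p below 0.05. Stag3 had 98.7 and 117 CPM in RlimKO-labelled against 148 and 140.1 in WT females (log2 difference -0.41 ± 0.16, edgeR adjusted p = 0.420), where Smc1b differed by -2.19. WT females against males the count was 3: Syce1 and 4930447C04Rik were higher (edgeR adjusted p = 0.0127 and 0.0248) and Tdrd5 was lower (0.0137). Each of these calls was lost without undifferentiated WT female or male replicate 1, those of Syce1 and Tdrd5 also without male replicate 2, and that of Tdrd5 without WT female replicate 2, with adjusted p up to 0.192. RlimKO-labelled females against males it was 7, with 4930447C04Rik, Sohlh2 and Syce1 higher and Dppa3, Tdrd12, Tdrd5 and Zcwpw1 lower. Tdrd12 had 9.92 and 10.2 CPM in RlimKO-labelled cells and 53.1 and 63.9 in males (log2 difference -2.54 ± 0.36, edgeR adjusted p = 0.000779). Both calls of Tdrd12 and Tdrd5 against males held in all 12 fits that left out 1 library, as did that of 4930447C04Rik (log2 difference 2.03 ± 0.31). The others were less stable: the call of Zcwpw1 was lost in 5 of these fits and with DESeq2 (adjusted p = 0.0693), that of Syce1 in 4, without any library of the lines compared, that of Sohlh2 without replicate 2 of either line, and that of Dppa3 without RlimKO-labelled replicate 1. For Zcwpw1 the libraries were the 4 undifferentiated ones compared and differentiated WT female replicate 2, and without one of them the adjusted p reached 0.200. Tdrd5, a tudor protein of the male germline, had 0 counts in RlimKO-labelled cells and 61 in males, 11.4-fold lower at the floor of 3 counts (edgeR adjusted p = 0.00145). Only 2 of the 41 genes, Tex11 and Taf7l, are X-linked, and neither was among these calls.

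After differentiation edgeR called 3 of the 41 lower in RlimKO-labelled than in WT females. Stag3 was at 14.9 and 12.2 against 31.4 and 31.5 CPM (log2 difference -1.25 ± 0.20, edgeR adjusted p = 0.00442). Sohlh2, a transcription factor of early germ cell differentiation, was at 0.531 and 0.488 against 6.12 and 3.44 CPM (edgeR adjusted p = 0.0101). Meioc, a meiotic RNA regulator listed as Gm1564, was at 3.72 and 4.15 against 14.2 and 18.3 CPM (edgeR adjusted p = 0.00777). The Stag3 call was lost without differentiated WT female replicate 1 or RlimKO-labelled replicate 2 (highest adjusted p 0.144), the Sohlh2 call without differentiated WT female replicate 1 or either RlimKO-labelled library (0.256), and the Gm1564 call without WT female replicate 2 or either RlimKO-labelled library (0.152). Pluripotent cell markers were also lower there, with Pou5f1, Nanog and Esrrb called of 8, and their sum was 85.8 to 91.9 against 172 to 179 CPM. Markers of other cell types differed as well: cardiac muscle markers summed to 9.03 to 10.97 against 48.8 to 61.0 CPM (3 of 4 tested called lower), endoderm markers to 121 to 142 against 237 to 238 (1 of 7 lower, Afp), neural markers to 41.4 to 43.9 against 121 to 132 (1 of 4 lower, Nes) and fibroblast markers to 11440 to 11721 against 7192 to 8355 (0 of 8 called by edgeR, 1 at an unadjusted p below 0.05). Of the neural markers, Sox1 and Neurog2 were at 0 counts in both of these groups. On differentiation of WT females Nes was called higher and Pax6, Sox1 and Tubb3 lower, so the neural sum is no measure of neural cells. The part of all these markers in the lower germline RNA was not tested. WT females against males 5 of 41 were called, all higher, and RlimKO-labelled females against males 5, of which 3 were higher and 2 lower. Over all tested genes 2.59% were called between the female lines, 8.97% between WT females and males, and 11.6% between RlimKO-labelled females and males. Gm1564, at 3.44 CPM in both male libraries, was among the genes called between WT females and males (log2 difference 2.22 ± 0.33, edgeR adjusted p = 0.00121). In a fit of only the 4 libraries compared, 0 of the 41 were called in either comparison with males.

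RNA of genes of the silencing machinery was measured beside that of the germline genes. Of 15 genes of PRC1.6, 0 were called between the undifferentiated female lines by edgeR, with 2 at an unadjusted p below 0.05. On differentiation 7 fell and 2 rose in WT females, 6 fell and 1 rose in RlimKO-labelled females, and 7 fell and 1 rose in males, beside the 48.7%, 48.0% and 54.0% called over all genes. Yaf2 rose in each line, and E2f6 rose in WT females. L3mbtl2, a PRC1.6 subunit, went from 95.04 and 105 CPM to 22.3 and 17.5 in WT females (log2 change -2.32 ± 0.21, edgeR adjusted p = 7.85e-07). Mga went from a mean of 495 to 235 CPM there, with an edgeR adjusted p of 3.21e-05. Of 12 genes of DNA and H3K9 methylation, Dnmt3l, a cofactor of de novo methylation, was the one called between the undifferentiated female lines. It had 14.6 and 13.6 CPM in RlimKO-labelled against 63.0 and 73.4 in WT females (log2 difference -2.27 ± 0.42, edgeR adjusted p = 0.0437). That call held in 2 of the 12 fits that left out 1 library, those without a differentiated male library, and the adjusted p reached 0.390 in the others. Against males, at 65.7 and 65.7 CPM, Dnmt3l was lower by 2.22 ± 0.42 (edgeR adjusted p = 0.00438, and 0.0901 without undifferentiated RlimKO-labelled replicate 2).

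In both undifferentiated female lines Tet1, a methylcytosine oxidase, was higher than in males and the methyltransferase gene Dnmt3b was lower. Tet1 had 930.4 and 932 CPM in WT females, 875 and 891 in RlimKO-labelled females and 549 and 556 in males, with edgeR adjusted p of 0.00395 and 0.00504 against males. Dnmt3b had 98.7 and 111 CPM, 114 and 103, and 207 and 217, with edgeR adjusted p of 0.00448 and 0.00401; the first of these was lost without undifferentiated WT female or male replicate 1 (highest 0.0881) and the second without RlimKO-labelled replicate 2 (0.102). On differentiation 10 of the 12 genes were called in each line, beside 48.7%, 48.0% and 54.0% of all genes in either direction. Tet1, Dnmt3b, Dnmt3l, Hells, Tet2 and Uhrf1 fell in all 3, and Dnmt3a and Tet3 rose.

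Of 7 somatic relatives of these genes, 4 fell and 1 rose on differentiation in WT females, 2 fell and 1 rose in RlimKO-labelled females, and 4 fell and 2 rose in males. Over all genes 48.7%, 48.0% and 54.0% were called in either direction. The median log2 change of the somatic relatives was -0.56, -0.07 and -0.61. Smc1a, the cohesin subunit of somatic cells and X-linked, had 308 and 245 CPM in undifferentiated WT females and 248 and 283 in RlimKO-labelled females (log2 difference -0.06 ± 0.16, edgeR adjusted p = 0.963). On differentiation it fell by 1.11 ± 0.16 on the log2 scale in WT females, to 125 and 132 CPM (edgeR adjusted p = 6.93e-05). Slc25a4, a somatic ADP/ATP carrier, rose from 129 and 127 CPM to 179 and 175 in WT females (edgeR adjusted p = 0.0138), while X-linked Slc25a5 fell from 534 and 582 to 115 and 110.0 (edgeR adjusted p = 3.93e-08).

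Across the 12 libraries, Pearson's r of log2 CPM between pairs of the 7 genes was 0.69 to 0.96 without Sycp1, and 0.01 to 0.32 for Sycp1 with the others. These values are descriptions over 12 libraries that differ in state, line and depth, and no correlation within a state was computed. The 8 genes most like the mean of the 7 were Rif1, Hspa4, Sox2, Hsf2bp, Gtpbp4, Cacybp, Cox5a and Fbxo15, with r from 0.986 down to 0.979. Sox2, a pluripotency factor, went from means of 155, 125 and 163 CPM in WT female, RlimKO-labelled and male cells to 20.0, 10.3 and 10.1. Hsf2bp, known for meiotic recombination, went from 70.2, 52.3 and 48.1 CPM to 3.90, 3.08 and 0.920.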

How the data were processed

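The deposited values were whole-number counts of reads per gene in 12 libraries of total RNA, made from template-switching cDNA and Nextera tagmentation on an Illumina NextSeq, per the labels' protocols. The submitters' processing notes name bcl2fastq 2.16.0.10, TopHat2 2.0.12, HTSeq 0.6.1p1, edgeR 3.10.0 and the build mm10. The gene annotation and strand setting of the counting are not given in the sources used here. Molecules carried no identifiers, so copies were counted as reads. The 5 summary lines were set aside; as shares of all lines of the table, reads assigned to no feature made up 45.4% to 53.3% of a library and ambiguous ones 0.241% to 0.926%.

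The tests used edgeR 4.0.16 (R 4.3.3, limma 3.58.1): 1 quasi-likelihood model of 6 groups, TMM scaling, edgeR's filter on low counts (12814 of 23336 genes kept) and Benjamini-Hochberg adjustment over all of them, with 0.05 as the threshold. Fold changes are log2 with SE, and ± beside a level is the SD of 2 libraries. DESeq2 1.42.0, other filters and scalings, fits of only the libraries compared, a replicate block and leaving out each library were alternatives. Leaving out the libraries with the lowest and highest Rn45s share together was chosen after seeing the data. An exact permutation test of 2 against 2 cannot go below 0.33, so no such test was used. The scripts were tested on simulated data.

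The members and gene lists were chosen with earlier results of these data known. Of 148 listed genes, 7 were matched by an older symbol (Meioc as Gm1564). Named were all 9 genes, and per comparison up to 4 other germline genes called in each direction by largest change, if the higher group averaged 2 CPM or more; of the regulators and somatic relatives, called genes by smallest p, up to 6; and the 8 most correlated genes. Among these, genes whose call held with each library left out were preferred after values were seen; Syce1, Stag3, Ddx4, Tdrd12, Mga, Smc1a, Slc25a4, Yaf2, E2f6, Dnmt3a and Tet2 were named outside the rule in some comparisons, with their values seen. Gene positions are those of GENCODE on GRCm38 (mm10), and promoters are RefSeq's.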

Additional observations from a re-analysis of the deposited data

Results flagged for a closer look

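For 2 germline genes the change on differentiation itself differed between lines, by edgeR's test of that difference. Over all tested genes 0.203% were called for RlimKO-labelled against WT females and 1.39% for males against WT females. Sohlh2 fell more in RlimKO-labelled than in WT females, with a difference in log2 change of -3.91 ± 0.68 (SE; adjusted p = 0.0375). It went from 33.9 and 40.1 CPM to 0.531 and 0.488 in RlimKO-labelled cells, and from 20.0 and 25.3 to 6.12 and 3.44 in WT females. The call held in 3 of the 12 fits that left out 1 library, those without undifferentiated male replicate 1 or a differentiated male library, and the adjusted p reached 0.380 in the others. Meioc, listed as Gm1564, fell in males and not in WT females, with a difference of -2.68 ± 0.46 (adjusted p = 0.0125). It went from 20.4 and 21.8 CPM to 3.44 and 3.44 in males, against 20.5 and 10.5 before and 14.2 and 18.3 after in WT females. The call was lost in a fit of only the libraries compared. That call held in 7 of the 12 fits and was lost without either differentiated WT female library, WT female undifferentiated replicate 2 or either undifferentiated male library (highest adjusted p 0.0903).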

How the results depend on the processing

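Of the fold changes of the 7 tested genes under the alternatives run, 1309 moved by less than the replicate SD and 154 by more. Of the values called by edgeR 0 changed sign, and 56 values of fold changes that were not called did. The counts of other germline genes called (of 41) moved as follows, and the cause was not tested. Between the undifferentiated female lines, 0 became 1 with no filter, 3 in a fit of only the libraries compared and 3 without the libraries of extreme Rn45s share. For undifferentiated WT females against males, 3 became 8 under each of these settings. For undifferentiated RlimKO-labelled females against males, 7 became 12 with only the libraries compared and 11 without the extreme libraries. For differentiated WT females against males, 5 became 0 with only the libraries compared. For differentiated RlimKO-labelled females against males, 5 became 2 with DESeq2, 0 with only the libraries compared and 3 without the extreme libraries. For the difference in change between RlimKO-labelled and WT females, 1 became 2, 3 and 3 with no filter, only the libraries compared and without the extreme libraries; for males against WT females, 1 became 4, 0 and 5. With 1 library left out, the counts ran from 0 to 3, 0 to 8 and 4 to 11 between undifferentiated lines, 0 to 5, 3 to 11 and 0 to 13 between differentiated lines in the same order with RlimKO-labelled against WT females first, 18 to 27, 21 to 28 and 23 to 34 on differentiation in WT, RlimKO-labelled and male lines, and 0 to 3 and 0 to 9 for the differences in change; a group left with 1 library was assumed to vary like the others. Over all genes, the calls between undifferentiated female lines were 31, and 70 with DESeq2, 144 with no filter, 363 with only the libraries compared and 403 without the extreme libraries. The other undifferentiated comparisons went from 849 to 2027 and 2249, and from 1282 to 2620 and 2788, under the last 2 settings. Between differentiated female lines 332 became 779 with no filter, 2237 with only the libraries compared and 1125 without the extreme ones; against males, 1149 WT calls became 7 and 2057, and 1489 RlimKO-labelled calls became 16 with only the libraries compared. The differences in change went from 26 to 56, 200, 513 and 381 (RlimKO-labelled; DESeq2 first), and from 178 to 558, 23 and 1210 (male). The replicate numbers did not pair the libraries: same-numbered deviations correlated at -0.066 to 0.103 over 15 pairs of groups. With the replicate block the counts of other germline genes were 0, 3 and 7 between undifferentiated lines, 3, 5 and 5 between differentiated lines, 26, 26 and 30 on differentiation and 1 and 1 for the differences. Depth limits Asz1, Slc25a31, Mael and Dazl most, with 15 to 145 counts each in all 12 libraries.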
